A study of Trichoderma reesei with 12 samples.

Results

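This report describes 153 genes of the filamentous fungus Trichoderma reesei whose RNA was moderately more abundant in light than in darkness. They were chosen by measured values, from 10879 genes in the deposited count table. Levels are given in CPM, the count of a gene scaled to a fixed library total, and were averaged within each strain and light condition. A gene was taken when its mean in light was at least 5 CPM in both strains and its ratio of light to darkness was at least 4 in both strains but below 16 in at least one. The ratio of light to darkness of these genes is therefore a description and not a finding, and no test of it is used as support. Of all genes, 7026 had the required level in light, so the 153 were 2.18% of those and 1.41% of the table. Another 47 genes with that level were at least 16-fold higher in light in both strains and serve as a comparison.

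Mycelium was grown on cellulose in a minimal medium for 96 h at 28 °C, either in darkness or in light. In both strains, made from QM6a, ku80 is deleted, a gene of non-homologous end joining whose loss eases gene targeting, so the controls carry that deletion too. The parent, QM6aΔku80, is called ku80 here. The other strain, QM6aΔku80Δsor4, also lacks sor4, by the series title a transporter of the SOR cluster, and is called sor4 here. There were 2 libraries of ku80 in darkness, 2 of ku80 in light, 4 of sor4 in darkness and 4 of sor4 in light, 12 in all. The treatment text of every sample speaks of darkness, while titles and treatment labels separate light from darkness, and the latter were followed. The intensity and colour of the light, and whether replicates were separate cultures or transformants, are not stated in the labels. The p-values therefore rest on a spread among libraries that could be technical.

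Light is a major developmental and metabolic signal for fungi. In Trichoderma, blue light is sensed by the proteins BLR1 and BLR2, relatives of the Neurospora White Collar proteins, and the response is tuned by the small photoreceptor ENV1. Known targets of light in this genus include photolyase, which repairs DNA damaged by ultraviolet light, genes of conidiation and stress tolerance, and, with cellulose as the carbon source, cellulase genes. The count table holds identifiers without gene names, and 0 of them matched the 9116 genes of the available reference gene table. The named photoreceptors, their targets, the SOR genes and the deleted gene itself could therefore not be looked up, and the genes below carry identifiers without functions.

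Library totals ran from 7844524 to 12027855 counts, so 1 count was close to 0.1 CPM. Within groups, the chi-square per gene between libraries was between 8.04 and 82.1, and no pair was treated as the same library. Fewer cells of a kind and less RNA per cell cannot be told apart in such bulk samples.

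In light the 153 genes together gave a small but steady part of all counts. Their share was 4.47% and 4.91% in the ku80 light libraries and 5.04%, 4.78%, 5.07% and 4.85% in sor4 light replicates 1 to 4. In darkness it was 0.642% and 0.504% in ku80 and 0.554%, 0.687%, 0.754% and 0.678% in sor4. Relative to their size the light shares lay closer together than the dark shares, with the highest value in sor4 dark replicate 3. The 47 more strongly responding genes gave a share of similar size in light, 6.45% ± 1.5 (SD, n = 2) for the ku80 libraries and 5.39% ± 0.506 (SD, n = 4) for the sor4 libraries. In darkness those 47 gave 0.0398% and 0.0497% of counts, far less than the 153. Most of the signal came from few genes. The 5 most abundant of the 153 gave 36.6% of their summed light CPM, and the 20 most abundant gave 71.0%.

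**Figure D1:**
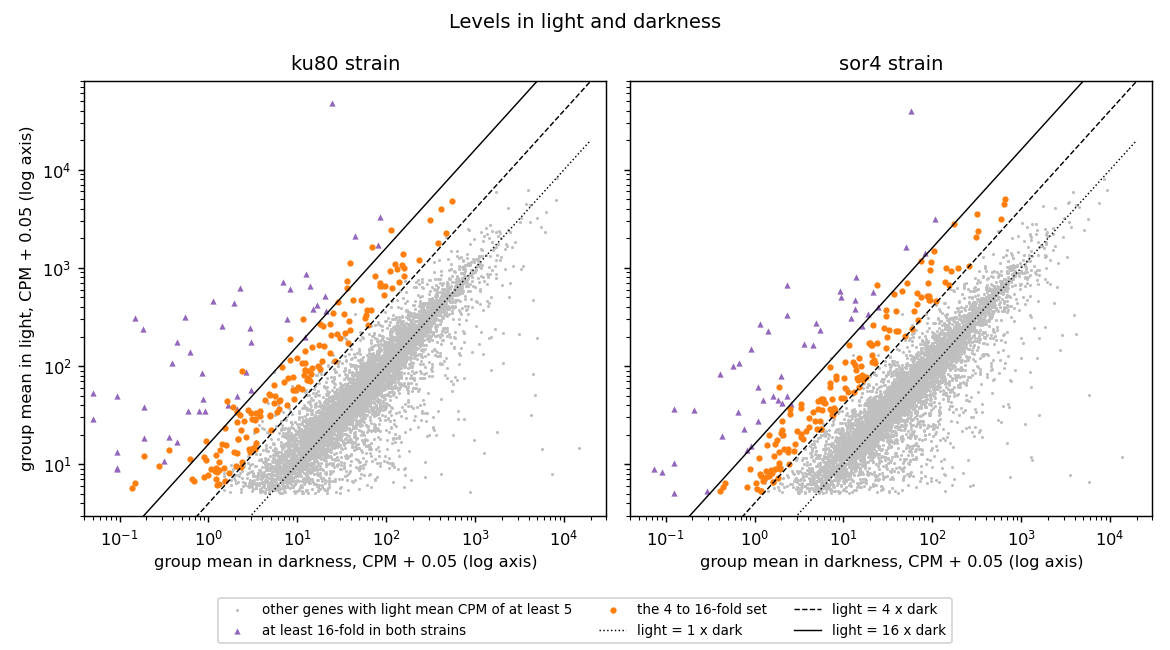
Group mean CPM (plus 0.05, log axes) in darkness and in light for ku80 and sor4. Orange points are the 153 genes, purple triangles the 47 genes at least 16-fold higher in light in both strains, grey points other genes with a light mean of at least 5 CPM, and lines mark ratios of 1, 4 and 16. The 153 genes cover mean levels in darkness from 0.0882 to 666 CPM, and 18 of them lie above the 16-fold line in ku80 against 2 in sor4.

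Most genes of this set had RNA at a measurable level in darkness. Their median level in darkness was 7.85 CPM in ku80 and 7.97 CPM in sor4, and in light it was 57.8 and 54.8 CPM. The 47 more strongly responding genes stood lower in darkness, at medians of 1.36 and 1.94 CPM, and higher in light, at 176 and 108 CPM. Of the 153, 5 were under 1 CPM in darkness in both strains, 66 were at 1 to 10 CPM in both, and 68 were at 10 CPM or more in both, of which 14 reached 100 CPM. In light, 17 stayed under 10 CPM in both strains, 56 reached 100 CPM and 9 reached 1000 CPM. Scaled by gene length, the median light level in sor4 was 48.0 CPM per kb, against 40.1 CPM per kb for all genes with the required light level. All 153 passed the filter on low counts, and none had 0 counts in any light library.

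In both strains every light library stood above every dark one for 150 of the 153 genes (98.0%, against 24.3% of the 8939 genes with enough counts to be tested), and for 147 all 6 light libraries stood above all 6 dark ones (96.1%, against 21.6%). The rule used these libraries, so nothing is read from the counts. The rule works on means, however, and the gap between single libraries was often smaller. The lowest light library was at least 4-fold above the highest dark one for 115 genes in ku80, for 80 in sor4 and for 66 in both strains (75.2%, 52.3% and 43.1%, against 2.66%, 1.73% and 1.44% of all tested genes). For the 47 stronger genes it was so in both strains for all 47. The median ratio of light to darkness was 8.34 in ku80 and 6.46 in sor4. In ku80, 74 genes lay between 4 and 8, 61 between 8 and 16 and 18 at 16 or more, and in sor4 these counts were 105, 46 and 2. In edgeR's quasi-likelihood test over all tested genes, 152 of the 153 were called higher in light in ku80 at an adjusted p under 0.05, where 19.8% of all tested genes were. In sor4 153 were called, where 26.6% of all tested genes were. These calls too come from the contrasts that chose the genes. The gene that missed the call in ku80 was TrC0773W, which is described below.

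The highest levels belonged to genes of very unequal length. TrB1256C, at 29481 nucleotides the longest gene of the whole table, stood at 613 and 476 CPM in ku80 darkness and at 872, 541, 578 and 672 CPM in sor4 darkness. In light it stood at 6103 and 3455 CPM in ku80 and at 4560, 5030, 5349 and 4974 CPM in sor4. Every light library was far above every dark one, and the strains overlapped. Per length its light level was only 167 CPM per kb. TrC1160W, of 171 nucleotides, was at 410 and 415 CPM in ku80 darkness and 361, 287, 338 and 296 CPM in sor4 darkness. In light it was at 4230 and 3816 CPM in ku80 and 3834, 3201, 3737 and 3532 CPM in sor4. Its light level per length was 21783 CPM per kb, far above that of TrB1256C. The third of the most abundant genes, TrF1115C, was less uniform. It stood at 670 and 272 CPM in ku80 darkness, at 331, 897, 655 and 652 CPM in sor4 darkness, at 1008 and 3549 CPM in ku80 light and at 4982, 3629, 4765 and 4467 CPM in sor4 light. The lower ku80 light library was close to the highest dark library, so its ratio of 4.84 in ku80 rests on replicate 2.

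At the lower end the counts limit what can be said. Averaged over the 6 light libraries, TrF1082W and TrA1840C had the lowest levels of the set, 5.78 and 5.88 CPM, with group means of 6.75 and 7.02 CPM in ku80 and 5.30 and 5.31 CPM in sor4. Averaged over the 6 dark libraries, TrC0067W and TrF0110C were lowest, at 0.297 and 0.350 CPM, while in ku80 darkness alone TrB0795W was lowest and in sor4 darkness alone TrF1082W. TrF0110C was at 0.099 and 0.353 CPM in ku80 darkness and at 0.22, 0.898, 0.196 and 0.333 CPM in sor4 darkness, against 5.23 to 11.9 CPM in light, without overlap. TrC0067W was at 0.198 and 0 CPM in ku80 darkness and at 0, 0.112, 1.47 and 0 CPM in sor4 darkness, against 4.08 to 8.20 CPM in the 6 light libraries. Sor4 dark replicate 3 alone held most of its dark counts in that strain. TrB0795W, the gene with the largest spread among both the sor4 dark and the sor4 light libraries, was at 0 and 0.176 CPM in ku80 darkness and at 0, 0.112, 3.24 and 0.582 CPM in sor4 darkness. In light it was at 5.34 and 5.99 CPM in ku80 and 2.84, 11.4, 6.61 and 4.89 CPM in sor4. Its pooled ratio in ku80 rested on 2 dark counts and was 60.3, with an exact 95% binomial interval of 16.3 to 505. Such intervals cover counting error alone, because counts were pooled and the spread between libraries was left out. Without molecular identifiers reads may be copies of the same molecule, so the intervals may be too narrow for counting error too. For 15 of the 153 genes this interval reached below 4 in ku80, and for 20 it did so in sor4. It spanned 16 for 18 genes in ku80 and for 9 in sor4.

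The limits of the rule fell inside a continuous range of ratios. Just inside the lower limit were TrC0303W, with ratios of 5.08 in ku80 and 4.05 in sor4, and TrC0046C, with 10.8 and 4.06. Just outside were TrC1127W, with 4.55 and a ratio under 4 by rounding in sor4, and TrA0339W, with 5.73 and 3.99. Near the upper limit, TrB1130W had 21.8 and TrA0304W 23.3 in ku80 with sor4 ratios just under 16. The genes outside, TrF0129W and TrA2088C, had 16.5 and 19.4 in ku80 with sor4 ratios just over 16. TrB1130W, among the most abundant of the set, was at 125 and 99.1 CPM in ku80 darkness and 108, 143, 274 and 172 CPM in sor4 darkness, and in light at 2603 and 2274 CPM in ku80 and 2736, 2563, 2684 and 3167 CPM in sor4. Its sor4 dark replicate 3 was the highest of the dark libraries. TrC0046C at the lower limit was at 0.33, 2.69, 3.63 and 0.499 CPM in sor4 darkness, so that its ratio there is the mean of unlike libraries. With any 1 library left out, 101 of the 153 genes still met the rule. Without 1 library the set held 137 to 160 genes, with the lowest number without ku80 light replicate 2.

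The rule did not compare the strains within a light condition, and these differences were tested with edgeR over all 8939 genes. In darkness 0 of the 153 genes passed an adjusted p of 0.05 between sor4 and ku80, where 0.0336% of all tested genes did. In light 0 passed, where 0% of all tested genes did, and for the difference of the light responses of the strains 0 passed, again with 0% of all tested genes. The difference of the responses is built from the ratios that chose the genes, so its counts are descriptions. DESeq2 called 0 of the 153 in darkness, 1 in light and 0 for the difference, with 78, 52 and 4 calls over all genes. The 1 gene in light was 0.654% of the set, against 0.582% of all tested genes. In limma-voom no gene of the set was called in any of these comparisons, with 3, 2 and 0 calls over all genes. At an unadjusted p under 0.05, 13 genes of the set were higher and 4 lower in sor4 in darkness (8.50% and 2.61%, against 3.38% and 4.37% of all tested genes). In light 5 were higher and 18 lower (3.27% and 11.8%, against 4.86% and 3.31%). The difference of the responses was below 0 at that level for 20 genes and above 0 for 1 (13.1% and 0.654%, against 3.05% and 3.54%). A p that misses the threshold does not show that the strains were alike, and the median standard error of a log2 difference was 0.31 in darkness, 0.25 in light and 0.40 for the difference of the responses.

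The median of the 153 was shifted between the strains, in opposite directions in darkness and light. The median log2 fold change of sor4 against ku80 was 0.18 in darkness, with 108 of 153 above 0 (70.6%). In light it was -0.10, with 54 above 0 (35.3%). Over all tested genes these medians were 0.01 and 0.00, with 52.7% and 49.7% of genes above 0. The difference of the responses, which is by construction the light value less the dark value, had a median of -0.23, against 0.00 for all tested genes. It was above 0 for 28.8% of the set and for 50.2% of all tested genes. The ratio of light to darkness was larger in ku80 than in sor4 for 113 of the 153 genes. Among the 47 more strongly responding genes the medians were 0.24, -0.26 and -0.43, and 38 had the larger ratio in ku80. These medians have no test, and the light and dark levels of both strains entered the selection. In the 20 alternatives tried, the dark median ran from 0.10 to 0.26 and the light median from -0.12 to -0.05. The median of the difference ran from -0.34 to -0.15 in its 19 alternatives, with the value nearest 0 when sor4 dark replicate 3 was left out. Without that library the median of the 47 genes in darkness was 0.04.

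**Figure D2:**
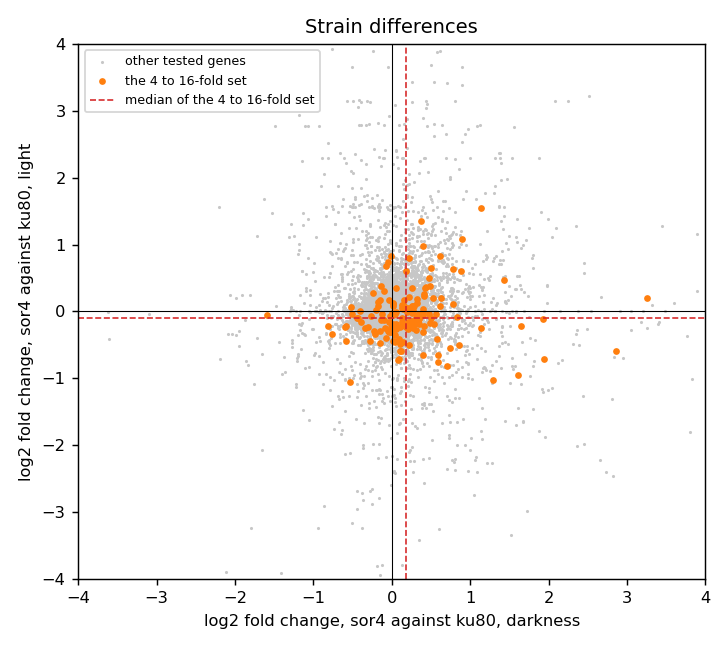
Log2 fold change of sor4 against ku80 in darkness (horizontal) and in light (vertical), from edgeR over all 12 libraries. Orange points are the 153 genes, grey points other tested genes, of which 46 lie outside the axes, and dashed lines give the medians of the 153, 0.18 and -0.10. Most orange points lie within 1 log2 unit of 0, 142 in darkness and 148 in light, as do 8571 and 8337 of all 8939 tested genes. None of the 153 passed the adjusted test.

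Counted by library, sor4 and ku80 did not overlap in darkness for 20 of the 153 genes, with sor4 above ku80 for 15 (9.80%) and below for 5 (3.27%). Over all tested genes these shares were 8.03% and 6.10%. In light every sor4 library was below both ku80 libraries for 29 genes (19.0%, against 10.5% of all tested genes) and above both for 13 (8.50%, against 9.48%). Among the 47 stronger genes, 15 (31.9%) were below in light.

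The genes with the smallest p in these comparisons show the size of the differences. TrE1235W stood at 44.6 and 32.8 CPM in ku80 darkness and at 53.1, 60.8, 45.1 and 48.9 CPM in sor4 darkness. In light it stood at 1140 and 1102 CPM in ku80 and at 729, 859, 692 and 540 CPM in sor4. The strains did not overlap in either condition, with sor4 above ku80 in darkness and below it in light. Its log2 fold change between the strains in light was -0.66 (SE 0.17, adjusted p = 0.363, edgeR), and it was the gene that DESeq2 called (adjusted p = 0.0423, over a range of 0.0423 to 0.857 across alternatives). The difference of its responses was -1.06 (SE 0.25, adjusted p = 0.691, edgeR). In light, TrG0171C was at 830 and 650 CPM in ku80 and 636, 578, 520 and 430 CPM in sor4, with a log2 difference between the strains of -0.44 (SE 0.14, adjusted p = 0.408, edgeR). TrD0448W, at 7047 nucleotides the second longest of the set, was at 78.3 and 103 CPM in ku80 light and at 49.1, 60.7, 59.3 and 50.1 CPM in sor4 light (log2 fold change -0.71, SE 0.21, adjusted p = 0.392, edgeR). For both genes all sor4 light libraries were below both ku80 light libraries, while the dark libraries overlapped.

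In darkness the smallest p belonged to a gene with very few counts. TrF0330C was at 0.099 and 0.176 CPM in ku80 darkness, a total of 3 counts, and at 1.54, 0.561, 1.18 and 1.16 CPM in sor4 darkness. Its light libraries overlapped, at 16.5 and 7.52 CPM in ku80 and 5.68, 6.38, 12.1 and 7.52 CPM in sor4. It had the largest ratio of the whole set in ku80, a pooled ratio of 90.0 (exact 95% binomial interval 30.4 to 439), against 7.16 in sor4, and neither the strain difference in darkness (log2 fold change 2.87, SE 0.77, adjusted p = 0.295, edgeR) nor the difference of responses (-3.45, SE 0.86, adjusted p = 0.691, edgeR) passed. TrF0368C was at 44.9 and 40.0 CPM in ku80 darkness and at 56.1, 86.4, 103 and 51.5 CPM in sor4 darkness (log2 fold change 0.78, SE 0.24, adjusted p = 0.432, edgeR), with sor4 above ku80 in every library. In light it stood at 461 to 528 CPM in all libraries, and the 2 ku80 values were below the 4 sor4 values. TrD0307C moved like TrE1235W, at 14.6 and 14.6 CPM in ku80 darkness and 21.6, 17.2, 29.9 and 20.1 CPM in sor4 darkness, then at 145 and 165 CPM in ku80 light and 130, 119, 110 and 103 CPM in sor4 light. The difference of its responses was -1.0 (SE 0.26, adjusted p = 0.691, edgeR). Such opposite strain effects without overlap were seen in 5 of the 153 genes (3.27%) and in 93 of all tested genes (1.04%). The light and dark levels behind these counts also entered the selection, so the counts are descriptions.

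**Figure D3:**
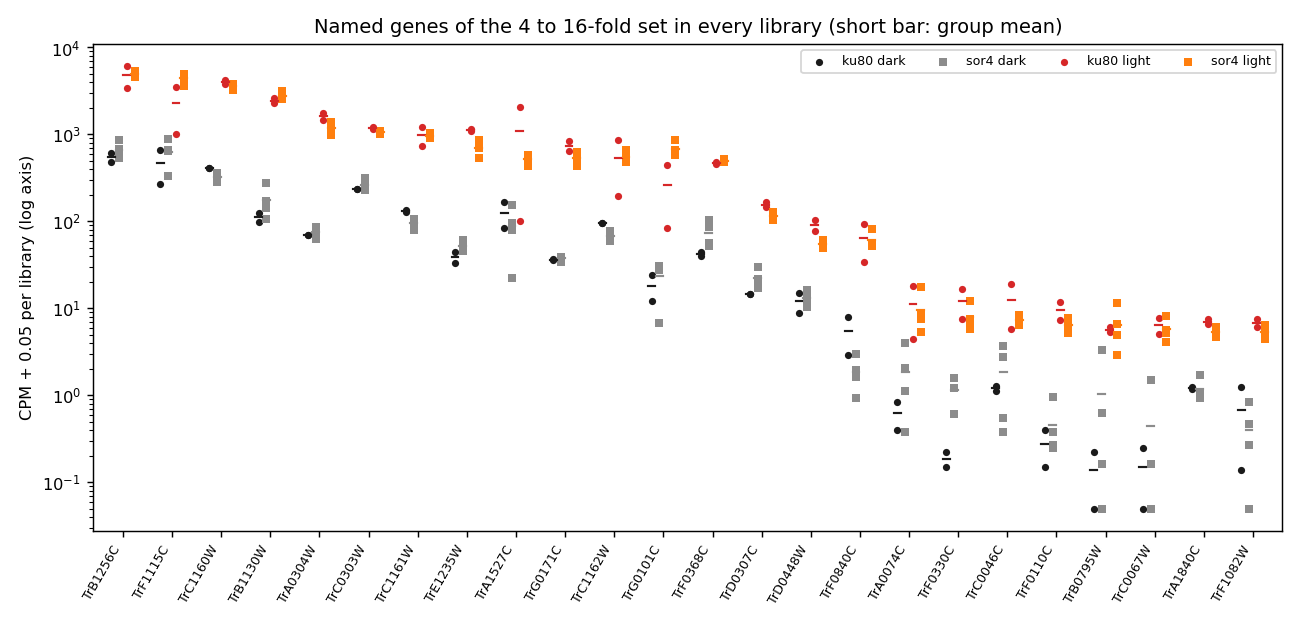
CPM plus 0.05 (log axis) of 24 genes of the set, named by the rule given in the methods, in every library. Black and grey points are dark libraries of ku80 and sor4, red and orange points light libraries, and short bars group means. The light libraries stand above the dark ones, except for 1 library each of TrA1527C and TrB0795W. Red pairs such as those of TrF1115C, TrA1527C, TrC1162W, TrG0101C and TrA0074C lie far apart.

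The libraries of a group varied more for these genes than for the 7026 genes with the required light level, but not clearly more than for the 47 stronger genes. The rule took means of these same libraries and could admit a gene through 1 high light library, so the spreads are descriptions. In ku80 light the median SD of log2(CPM + 0.5) was 0.255 for the 153 genes and 0.153 for all 7026 genes with the required light level, at similar median levels of 57.8 and 52.6 CPM. In sor4 light these values were 0.181 and 0.112, again at similar levels of 54.8 and 52.5 CPM. In sor4 darkness they were 0.368 and 0.169 and in ku80 darkness 0.219 and 0.117, where the 153 genes had lower counts than the others. The 47 stronger genes had 0.296 in ku80 light and 0.452 in sor4 darkness, above the set. They had 0.172 in sor4 light and 0.166 in ku80 darkness, below it. In ku80 darkness the order turned with the value added to CPM. With 0.1 in place of 0.5 the medians there were 0.335 for the 47 and 0.245 for the 153. The ku80 light libraries were over 2-fold apart for 31 genes of the set (20.3%, against 5.21% of the 7026). They were over 4-fold apart for 11 (7.19%, against 1.08%). Pairs of sor4 light libraries were over 2-fold apart for 0 to 5 genes of the set (0% to 3.27%, against 0.0996% to 0.64% of the 7026). Pairs of sor4 dark libraries were over 2-fold apart for 11 to 32 genes (7.19% to 20.9%, against 1.05% to 5.61%), most of all replicates 1 and 3. Sor4 dark replicate 3 was the highest of its group for 54 genes (35.3%), against 19.7% of the 7026 genes and 53.2% of the 47 stronger genes. Whether that library differed in its exposure or handling was not tested, and no label bears on it.

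**Figure D4:**
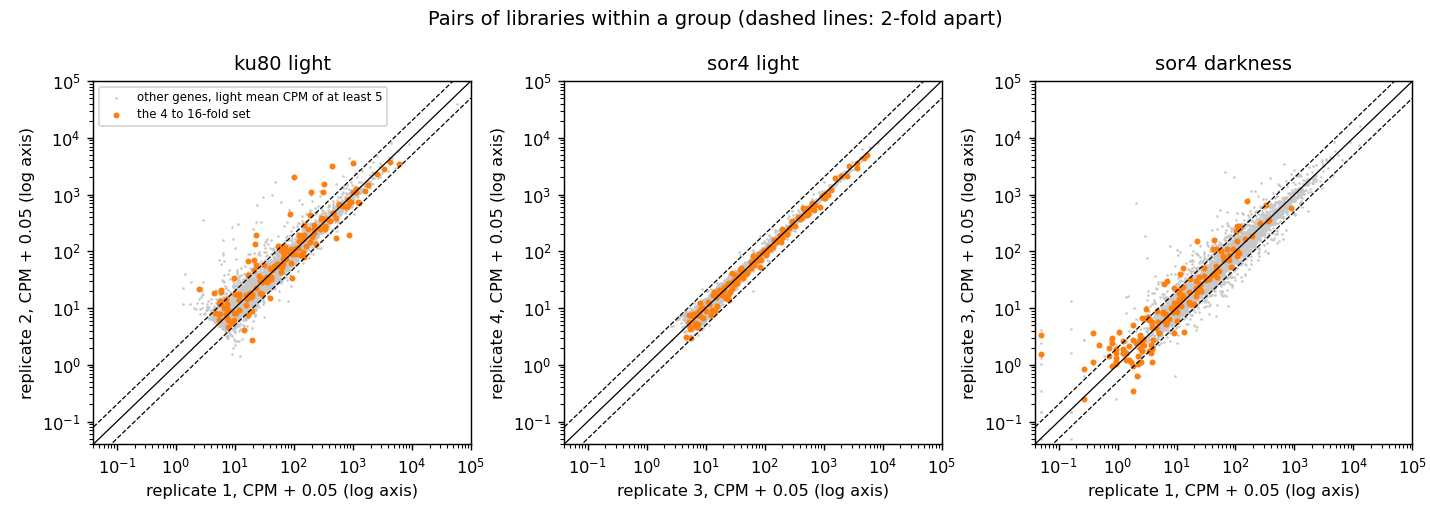
CPM plus 0.05 (log axes) in pairs of libraries of the same group, with solid lines of equality and dashed lines 2-fold to either side. Orange points are the 153 genes and grey points other genes with a light mean of at least 5 CPM. Between ku80 light replicates 1 and 2, 23 of the 153 are over 2-fold higher in replicate 2 and 8 in replicate 1, while sor4 light replicates 3 and 4 have 0 that far apart.

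Of the 31 genes over 2-fold apart between the ku80 light libraries, 23 were higher in replicate 2 and 8 in replicate 1. TrA1527C was at 102 CPM in replicate 1 and at 2070 CPM in replicate 2, with 501, 437, 548 and 586 CPM in sor4 light 22.5, 97.1, 153 and 79.4 CPM in sor4 darkness and 169 and 83.0 CPM in ku80 darkness. The lower ku80 light library lay within the range of the dark ones. The gene had the largest distance between those ku80 libraries and one of the largest spreads in sor4 darkness. TrG0101C, of 201 nucleotides, was at 84.6 and 447 CPM in ku80 light and at 658, 579, 864 and 597 CPM in sor4 light. On group means its response was larger in sor4 than in ku80, with ratios of 28.5 and 14.7, together with TrF0840C, at 33.5 and 11.8. The ku80 ratio of TrG0101C averages unlike light libraries. Its sor4 dark mean includes replicate 1 at 6.82 CPM, where the others had 27.7 to 30.4 CPM. No gene of the set passed edgeR's test of the difference of responses (smallest adjusted p = 0.691). TrF0840C was at 2.87 and 7.94 CPM in ku80 darkness and 0.88, 2.92, 1.57 and 1.91 CPM in sor4 darkness, and at 93.8 and 34.0 CPM in ku80 light and 52.8, 56.7, 82.3 and 52.5 CPM in sor4 light. TrF0840C and TrG0101C were the only genes of the set with a ratio of 16 or more in sor4 alone.

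Leaving out a ku80 light library brought calls that the full data did not give, named here after their values were seen. Over all genes there were 14 calls between the strains in light without replicate 2 (0.153%) and 110 without replicate 1 (1.19%), and the set had 2 in each case (1.31%). Without replicate 1 the set's share was thus near that of all genes. Without replicate 2, the adjacent genes TrD1156W and TrD1157W were higher in sor4 in light, with log2 fold changes of 2.32 (SE 0.27, adjusted p = 0.0325, edgeR) and 2.58 (SE 0.38, adjusted p = 0.0485, edgeR). With all libraries these were 0.50 and 0.82 (adjusted p = 0.828 and 0.713, edgeR). TrD1157W stood at 192 and 1117 CPM in ku80 light and at 1091, 944, 1336 and 1224 CPM in sor4 light, so that ku80 replicate 2 lay among the sor4 values and replicate 1 far below them. Without replicate 1, TrC1162W stood above ku80 in the sor4 light libraries (log2 fold change 1.48, SE 0.18, adjusted p = 0.00574, edgeR) and TrF0968C lower (-1.53, SE 0.30, adjusted p = 0.0459, edgeR). TrC1162W also passed then for the difference of responses (2.01, SE 0.22, adjusted p = 0.00476, edgeR), as 1 of 34 genes over the whole table. TrC1162W was at 869 and 197 CPM in ku80 light and at 659, 512, 547 and 486 CPM in sor4 light, between those ku80 values. Over all alternatives the adjusted p in light ran from 0.0325 to 0.911 for TrD1156W, from 0.0485 to 0.98 for TrD1157W, from 0.00574 to 1 for TrC1162W and from 0.0459 to 0.98 for TrF0968C. For the difference of responses of TrC1162W it ran from 0.00476 to 0.964 (edgeR, DESeq2 or limma-voom). Each of these calls rests on 1 ku80 light library, whose spread the fit takes from the remaining groups. TrC0773W, the gene not called between light and darkness in ku80, showed the same kind of split, with 563 and 201 CPM in ku80 darkness, 436 and 3150 CPM in ku80 light and 2821 to 3631 CPM in sor4 light.

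In position the genes were scattered. The identifiers carry a letter from A to G, a running number and a final W or C, whose meanings the table does not give. Genes of the set made up 3.49% of the genes with the required light level in series F and 3.24% in series D, against 1.40% in series E and 1.70% in series B, and 2.18% over all. The first or last 20 rows of a series, 280 rows in all, held 3 genes of the set, which made up 1.41% of the whole table. The final letter was W for 71 and C for 82, in shares near those of the whole table (46.4% W, against 49.3%). The median length was 1212 nucleotides, against 1362 for genes with the required light level and 1113 for all. Genes of at most 300 nucleotides numbered 15 (9.80%, against 3.07% of genes with that light level, 8.51% of the 47 stronger genes and 8.10% of the whole table), and 2 had 5000 or more. These shares are descriptions without a test.

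Most genes of the set stood alone in the table, but their neighbours were more often higher in light than other genes. No neighbouring row held another gene of the set for 128 of the 153. There were 11 pairs in adjacent rows and 1 run of 3, and 9 of the 13 adjacent steps had the same final letter (69.2%, against 41.9% of all adjacent rows). Another 6 genes had a neighbour from the 47 stronger genes. Of 223 tested genes next to a gene of the set and not in it, 76 (34.1%) were called higher in light in ku80 and 98 (43.9%) in sor4, against 19.8% and 26.6% of all tested genes. Fewer of them were called lower in light, 14.8% in ku80 and 20.6% in sor4, against 22.8% and 28.8%. The median log2 fold change of these neighbours in light was 0.27 in both strains. At 2 rows away the shares called higher were 23.9% and 34.8%, and from the fifth row on they lay between 15.7% and 22.6% in ku80 and between 23.9% and 29.6% in sor4. These are the same light contrasts in the same libraries as the rule used, so no test was made. The sources do not say whether counting used the strand, and reads shared by overlapping neighbours cannot be told apart.

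**Figure D5:**
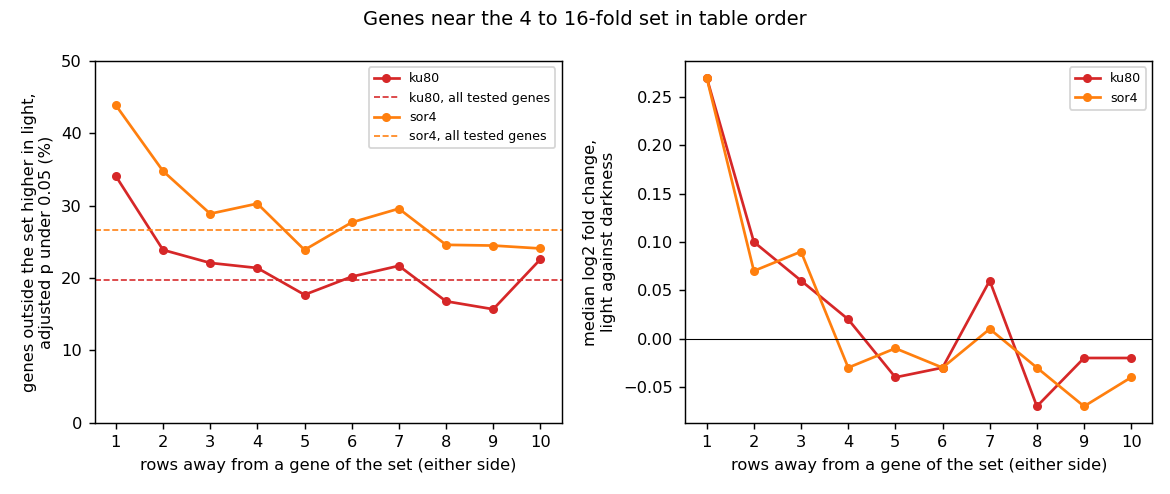
Tested genes outside the set by their distance in table rows from a gene of the set, for ku80 (red) and sor4 (orange). The left panel gives the percentage called higher in light, with dashed lines at 19.8% and 26.6% for all tested genes, and the right panel the median log2 fold change of light against darkness. Both are highest in the adjacent row, at 34.1% and 43.9% and at 0.27.

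The run of 3 consists of very short genes. TrC1160W, TrC1161W and TrC1162W have 171, 261 and 162 nucleotides and the same final letter, and TrC1162W is the shortest gene of the set. TrC1161W was at 130 and 134 CPM in ku80 darkness, 105, 80.7, 101 and 92.7 CPM in sor4 darkness, 1220 and 739 CPM in ku80 light and 1035, 900, 928 and 930 CPM in sor4 light. TrC1162W was at 95.8 and 94.8 CPM in ku80 darkness and 78.2, 60.2, 71.1 and 60.3 CPM in sor4 darkness. All 3 genes were below both ku80 libraries in every sor4 dark library, against the direction of the set's median. Their log2 fold changes in darkness were -0.39 (SE 0.11) for TrC1160W, -0.50 (SE 0.16) for TrC1161W and -0.53 (SE 0.39) for TrC1162W, and none passed the test (adjusted p = 0.354, 0.450 and 0.809, edgeR). On group means all 3 had a larger ratio of light to darkness in sor4 (11.2, 9.99 and 8.17) than in ku80 (9.76, 7.41 and 5.59). For TrC1162W this rests on ku80 light replicate 2, a check chosen after seeing the data, since the ku80 ratio was 9.12 with replicate 1 alone, above that of sor4, and 2.07 with replicate 2 alone. As short neighbours they may share reads, and how such reads were counted is not stated.

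The genes of the set were chosen for a common step between darkness and light, so that they also correlate over the 12 libraries. The correlation of a gene with the mean of the set, on log2(CPM + 0.5), had a median of 0.976 and a lowest value of 0.778. Outside the set the tested genes most like that mean were TrE0456W and TrB0345W, both among the 47 stronger genes, with Pearson correlations of up to 0.998 over the 12 libraries. TrE0456W was at 0.166 to 0.589 CPM in darkness and 67.2 to 121 CPM in light, and TrB0345W at 43.7 to 56.4 and 1474 to 2225 CPM. Within the set, the ratios in ku80 and in sor4 ranked the genes alike only in part, with a Spearman rho of 0.63 across 153 genes whose libraries and selection are shared. The levels in light ranked almost identically in the strains, with a rho of 0.987.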

How the data were processed

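RNA was measured in 12 libraries by RNA sequencing. A plant RNA kit was used for extraction, and stranded libraries were made after removal of ribosomal RNA, per the labels' protocols. The submitters' processing notes name HISAT2 2.2.1, a read aligner. The deposited values are whole-number counts per gene with the gene length as another column, per the file headers. The name of the deposited count table contains featureCounts, a read counting program. For the build, gene models and strand option of the counting, nothing is stated in the sources used here.

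CPM values are counts over the library total, without further scaling. The deposited counts were fitted in R 4.3.3 by edgeR 4.0.16 (TMM normalization, default filter by group, quasi-likelihood F test, 1 fit of 4 group means, Benjamini-Hochberg adjustment over 8939 genes). Each gene thus has 1 spread for all groups. The script was tested on simulated counts. Alternatives were other scalings, DESeq2 1.42.0, limma-voom (limma 3.58.1), a block by replicate number, a fit of the compared groups alone, each library left out, and other filters on low counts (none, or 5 CPM in 2 or more libraries).

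Groups were taken from titles. The genes, lists and tests were chosen with earlier results of these data known. Genes were named by a rule on extremes: highest and lowest levels, longest and shortest, smallest p in each strain comparison, largest spread, runs of 3 or more, most unequal strain responses, and those nearest the limits of the ratio. No gene list could be matched to the identifiers, no sequence is shown, and no gene set was tested.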

Additional observations from a re-analysis of the deposited data

Results flagged for a closer look

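For the sor4 groups, 52 sets of 4 values (24 named genes, the summed share and the library total, in darkness and in light) were examined with Dixon's test at its 95% value, which marks a single distant library. It marked 4 sets. Chance marks about 1 in 20 for normally distributed values, which does not hold near 0 counts. The genes were also named by extremes of these same libraries, so that rate does not apply to them and the marks are descriptions. In darkness, replicate 3 of sor4 was high for TrC0067W, with 1.47 CPM where the other 3 libraries had 0 to 0.112 CPM. Replicate 2 was high for TrA1840C, with 1.68 CPM where the others had 0.880 to 0.998 CPM. TrG0101C was low in sor4 dark replicate 1, at 6.82 CPM against 27.7 to 30.4 CPM. TrF0840C was high in sor4 light replicate 3, at 82.3 CPM against 52.5 to 56.7 CPM.

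For TrE1235W and TrD0307C every sor4 library was above both ku80 libraries in darkness and below both in light. The differences of their light responses were -1.06 and -1.0 on the log2 scale, and edgeR's test of the difference gave an adjusted p of 0.691 for each.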

How the results depend on the processing

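Called genes of the set moved in few alternatives. Between the strains in light, the number was 0 in edgeR, 1 with DESeq2 and 0 to 2 when 1 library was left out. For the difference of the responses it was 0, and 0 to 1 when 1 library was left out. In darkness it was 0 in all 20 alternatives. The numbers pair no libraries by label, and the deviations of same-numbered libraries from their group means correlated between -0.28 and 0.15. In a fit with the replicate block, 0 genes of the set were called in each strain comparison, 147 in light against darkness in ku80 (152 without the block) and 153 in sor4. Over all genes that fit called 3468 in ku80 and 4631 in sor4, and it called 17.4% and 24.6% of tested genes higher in light. With crossed numbers as the block in the 4 ku80 libraries alone, an alternative chosen after seeing the data, 143 were called among 2232 of all genes, against 136 and 2330 in those libraries without a block.

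Over all genes, calls between the strains in darkness were 3, 78 with DESeq2, 1 with the block, 1 with only the groups compared and 1 to 22 without 1 library. In light they were 0, 52 with DESeq2, 2 with limma-voom, 1 with the block, 1 with only the groups compared and 0 to 110 without 1 library. For the difference they were 0, 4 with DESeq2, 1 with no filter on low counts and 0 to 34 without 1 library. Light against darkness in ku80 gave 3810, and 2330 with only the groups compared. The set held 151 genes with TMM-scaled CPM (148 shared), 161 without the 20 most abundant genes in the total (151 shared), 150 with group medians (143 shared) and 126 with a light minimum of 10 CPM. Of 128 alternative values of the main results, 124 stayed on their side or within 1.5 times. Many of these were calls between light and darkness, or numbers, shares and spreads of the chosen genes, which the rule shaped. They therefore say little about the strain comparisons. The 4 values that moved were all counts of calls between the strains in light or for the difference of the responses. Depth limits the 13 genes with under 20 pooled dark counts in ku80. Causes were not tested.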

Other observations

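The 23 genes of the set that were over 2-fold higher in ku80 light replicate 2 than in replicate 1 also stood apart in other libraries. This list was made from the values of those light libraries, and the rule also used the dark libraries of both strains. It gets no test. In sor4 darkness, 16 of the 23 (69.6%) had their lowest value in replicate 1, against 36 of the 122 genes (29.5%) that were within 2-fold between the ku80 light libraries. Their median level in sor4 dark replicate 1 was 1.22 log2 units below the mean of the other 3 libraries, where the 122 were 0.04 above it. In ku80 darkness, 18 of the 23 (78.3%) were higher in replicate 1 than in replicate 2, by a median of 0.84 log2 units, against 67 of the 122 (54.9%) and a median of 0.04. Among 237 genes outside the set with the same light minimum and the same split in ku80 light, 128 (54.0%) were lowest in sor4 dark replicate 1, against 21.7% of all 7026 genes at that level. In ku80 darkness 155 of the 237 (65.4%) were higher in replicate 1, against 45.1% of the 7026. Their median shifts were smaller than those of the 23, at -0.31 log2 units in sor4 dark replicate 1 and 0.14 in ku80 darkness. The 23 had a median length of 735 nucleotides, and the 122 a median of 1346.

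The split had no counterpart in the replicate numbers, since the low library was replicate 1 in ku80 light and in sor4 darkness but replicate 2 in ku80 darkness. No label gives a date, culture vessel or position for these libraries.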
